A study of Mus musculus with 35 samples.

Results

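Reg4 was followed through every matched count table of a single-cell study of the mouse small intestine. It is 1 gene of the 23538 gene rows per table, taken by its row name, and the tables held 1680 wells, each meant for 1 cell, of which 1209 had at least 1500 transcript counts and were kept. In GENCODE release M21 (GRCm38), Reg4 (ENSMUSG00000027876.4) is a protein-coding gene on the plus strand of chromosome 3, from 98222156 to 98236748, with 1 annotated transcript of 6 exons. A Reg4 count was present in 511 kept wells, 128 wells had 10 or more counts and 40 wells had 100 or more.

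Reg4 encodes a small secreted protein of the regenerating family, which belongs to the C-type lectins. In the gut its transcript is known from secretory cells, above all enteroendocrine cells, which release hormones, and also deep crypt secretory cells of the colon. The other secretory cells of the small intestine are Paneth cells, which release defensins and lysozyme, and goblet cells, which release mucins. Absorptive enterocytes and Lgr5-expressing stem cells are among the other cells of the epithelium.

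The 250 bases before the RefSeq start of Reg4 are given because the gene's own level is what all values below describe. They lie on the plus strand at chr3:98221906-98222155 (GRCm38.p6, sequence from RefSeq). Capitals mark the only match to CANNTG, a word bound by basic helix-loop-helix factors, a family that includes secretory lineage regulators of the gut such as Atoh1 and Neurog3.

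Reg4 promoter: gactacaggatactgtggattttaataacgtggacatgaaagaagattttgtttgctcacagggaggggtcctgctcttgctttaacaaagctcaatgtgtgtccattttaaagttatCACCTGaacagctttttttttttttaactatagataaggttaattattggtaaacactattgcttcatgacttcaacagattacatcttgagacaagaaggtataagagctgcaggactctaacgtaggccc

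The match, CACCTG, began 132 bases before the start. CANNTG reads the same on both strands and was found in 66.2% of 32851 promoter windows of this length, so its presence is common. Neither CAGATG nor its reverse complement CATCTG was in the window (14.4% of windows hold one), and TATAAA was absent from the plus strand (7.59% of windows hold it on the gene's strand).

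All animals were on a C57BL/6 background. Organoids are cultures of epithelium grown from small intestinal crypts in Matrigel with EGF, RspoI and Noggin, and each of the 3 organoid genotypes came from 1 mouse, with passages of that culture as replicates. The whole organoid group was wild-type and taken without a reporter sort (2 replicates of 3 and 4 plates). The Reg4-positive group was sorted on dsRed, a red fluorescent protein placed in the Reg4 gene of a Reg4-dsRed-knock-in mouse so that it marks Reg4 expression (2 replicates of 1 and 2 plates). The Lgr5-positive organoid group came from a Lgr5-GFP-DTR mouse (1 replicate, matched to its table by the table's name alone). Freshly dissociated crypt cells gave the other two groups, Lgr5-EGFP stem cells (2 plates) and YFP cells (5 plates), the latter being progeny of Lgr5 cells sorted 5 days after Lgr5-Cre had switched on YFP from Rosa26. The labels do not say whether ex vivo plates came from different animals, so p-values measure the spread between passages or plates only. Kept wells held 287001 to 2860636 counts per replicate, with medians of 4608 to 13131.5 counts per well. Plates I, II and IV of whole organoid replicate 2 stood apart with no Reg4 count, and plate II of Reg4-positive replicate 2 held 3 wells of more than 100000 counts. As a check of the sorts, Lgr5 was 2.45 (SE 0.57, log2) higher in the Lgr5-positive organoid replicate than in whole organoids without passing edgeR's quasi-likelihood test (adjusted p = 0.0584), and it fell by 0.91 (SE 0.20) in YFP against Lgr5-EGFP plates (adjusted p = 0.00434).

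Reg4 was most abundant in the cells sorted for it. On the counts-per-million scale (CPM), which sets Reg4 counts against all gene counts in kept wells, the Reg4-positive replicates stood at 2279 and 7465 CPM, the whole organoid replicates at 1320.3 and 104 CPM, and the Lgr5-positive organoid replicate at 268 CPM. The 2 Reg4-positive replicates lay above both whole organoid replicates, which themselves were far apart. In cells taken straight from the intestine, the Lgr5-EGFP plates stood at 809 and 170.4 CPM and the 5 YFP plates at 504, 405, 602, 328 and 324 CPM. All YFP values lay between the 2 Lgr5-EGFP plates.

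By group mean the order was Reg4-positive (4872 ± 3667, SD, n = 2), whole organoid (712 ± 860, n = 2), Lgr5-EGFP (490 ± 452, n = 2), YFP (433 ± 120, n = 5) and Lgr5-positive organoid (268, 1 replicate). Only between the first and the next of these did neighbouring ranges of more than 1 replicate stay apart. Whole organoid, Lgr5-EGFP and YFP ranges overlapped, and the single Lgr5-positive organoid value lay below all YFP plates and inside the whole organoid range.

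**Figure D1:**
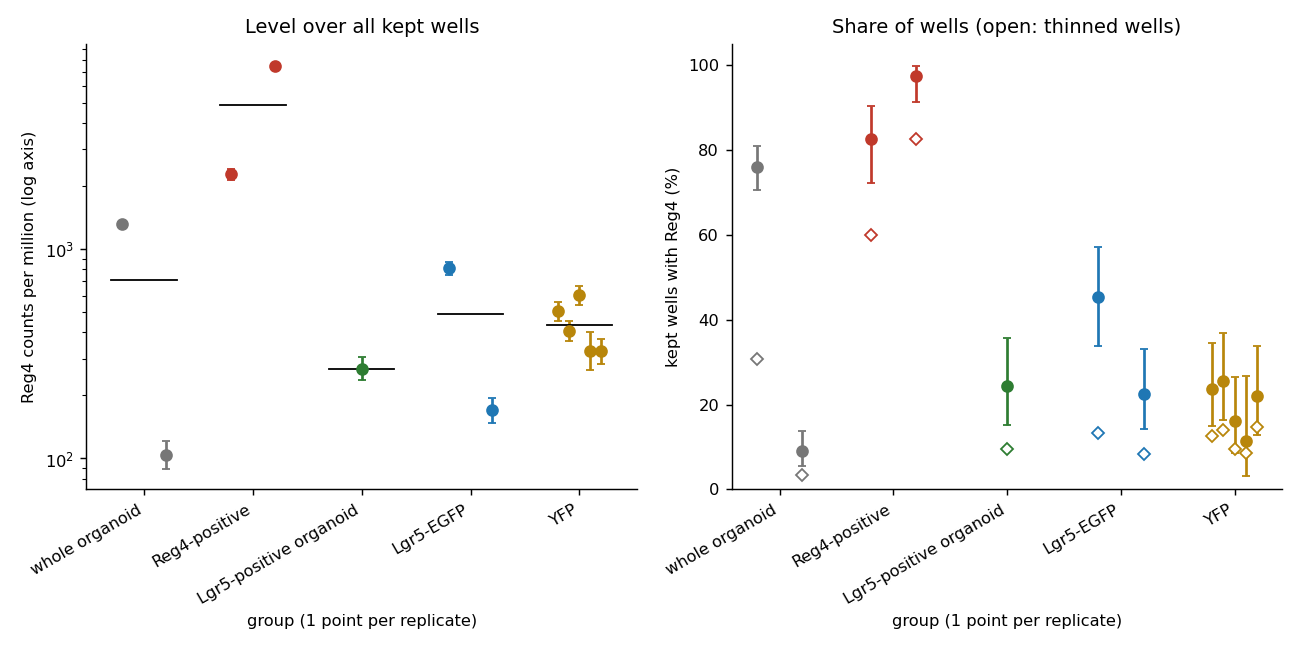
Reg4 per replicate: left, CPM on a log axis with exact Poisson intervals and a line at the group mean; right, the percentage of kept wells with at least 1 Reg4 count with exact binomial intervals (filled) and after thinning each well to 1500 counts (open). The Reg4-positive points at 2279 and 7465 CPM lie above all others, and the whole organoid points at 1320.3 and 104 lie far apart.

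Against whole organoids, Reg4 was 2.67 (SE 1.04) higher on the log2 scale in Reg4-positive cells, a 6.35-fold difference. With 2 replicates on each side this did not pass edgeR's quasi-likelihood test after Benjamini-Hochberg adjustment over 10522 genes (p = 0.0335, adjusted p = 0.185). In that comparison 2.39% of genes tested were called higher and 4.07% lower, and 25.9% had every Reg4-positive replicate above every whole organoid replicate, as Reg4 had. The difference depends on the 2 whole organoid replicates: without replicate 1 it was 5.58, and without replicate 2 it was 1.78, with the remaining replicate assumed to vary like the other groups. Reg4 was called with each well thinned to 1500 counts (3.83, adjusted p = 0.0223) and with no filter on low counts (2.62, adjusted p = 7.2e-07). The share of all genes called in these settings is not given, so whether the calls are particular to Reg4 cannot be told.

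The Lgr5-positive organoid replicate differed from whole organoids by -1.73 (SE 1.32) on the log2 scale (adjusted p = 0.484, edgeR), in a comparison where 0.656% of genes were called higher and 2.97% lower. Its Reg4 level lay between the whole organoid replicates, whereas 52.2% of genes lay above both of them and 32.2% below both. Without whole organoid replicate 1 that difference turned to 1.18, and without replicate 2 it was -2.61. With wells thinned to 1500 counts it was -0.016. Reg4-positive cells stood 4.40 (SE 1.54) above the Lgr5-positive organoid replicate (p = 0.0208, adjusted p = 0.406), a comparison in which edgeR called 0 of 10522 genes, 1104 had an unadjusted p under 0.05, and DESeq2 called 88 higher and 0 lower. The 2 Reg4-positive replicates lay above it, as they did for 24.8% of genes, while 48.8% of genes lay below it in both. The difference was 4.39 without whole organoid replicate 1 and 4.38 without replicate 2, which enter this comparison through the shared spread alone. With no filter it was 4.39 and Reg4 was called, in a setting for which the share of all genes called is not given.

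Between YFP and Lgr5-EGFP cells Reg4 differed by 0.25 (SE 0.42) on the log2 scale (adjusted p = 0.720, edgeR), while 14.7% of 9065 genes were called higher and 11.0% lower. The plates overlapped for Reg4, whereas 7.72% of genes were higher in every YFP plate and 43.8% lower in every one. The direction rested on the Lgr5-EGFP plates. Without plate 1 the difference was 1.81, and without plate 2 it was -0.49. Each of these leaves 1 Lgr5-EGFP plate, which is assumed to vary like the YFP plates.

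The plates of the wild-type organoids differed widely. In replicate 1, plates I, II and III held 1728, 1362 and 687 Reg4 counts in 95, 93 and 88 kept wells, which is 1275, 1598 and 1052 CPM. In replicate 2, plate III held 162 counts in 79 wells, and plates I, II and IV held none in 26, 63 and 41 kept wells. A count of 0 in so many wells allows shares of Reg4-containing wells of up to 11.5%, 4.76% and 7.32%. Reg4 in replicate 2 was therefore seen on 1 of 4 plates, against all 3 plates in replicate 1.

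Sharing of Reg4 among wells was counted next. Of kept wells of the Reg4-positive replicates 82.7% and 97.5% had at least 1 Reg4 count. Unsorted wild-type organoid wells had one in 76.1% (replicate 1) and 9.09% (replicate 2) of cases, and Lgr5-sorted organoid wells in 24.3%. Lgr5-EGFP plates had 45.3% and 22.6%, and YFP plates 23.8%, 25.6%, 16.2%, 11.4% and 22.1%. The Reg4-positive mean exceeded the whole organoid mean by 47.5 percentage points, for which a two-sided exact permutation test over replicates gave p = 0.33, the smallest value that 2 against 2 can give. The YFP mean was 14.2 points lower than the Lgr5-EGFP mean (a difference of -14.2, exact permutation p = 0.286 over 5 against 2 plates), and that direction held only for wells with any count. It was 4.72 points the other way when a well needed 2 counts, 2.22 points when it needed 10, and 1.03 points with each well thinned to 1500 counts.

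Depth and low counts set much of these shares. Thinned to 1500 counts per well, the Reg4-positive shares were 60.0% and 82.7% and the whole organoid shares 30.8% and 3.35%. No other replicate then exceeded 14.7%, with 9.46% for Lgr5-sorted organoid wells, 13.3% and 8.33% for the Lgr5-EGFP plates and 8.57% or more for each YFP plate. Enterocytes are not known to make Reg4, so enterocyte-like wells (named from marker genes, below) were taken as the background. That they lack the transcript was not tested, and 10 of the 141 organoid ones had 10 or more Reg4 counts. In whole organoid replicate 1 they held a Reg4 count in 78.7% of 127 wells at a median of 7095 counts per well. All its wells together had one in 76.1% at a median of 7982. The 127 wells are part of the 276 wells they are set beside, so these shares are tied. They cannot tell whether the replicate's other wells differ from the enterocyte-like ones. In replicate 2, 0 of 10 enterocyte-like wells had one. YFP enterocyte-like wells had one in 6 of 40 wells (15%) at a median depth of 6354, with an exact interval of 5.71% to 29.8%. The plate shares of 11.4% to 25.6% in YFP cells, at plate medians of 5576 to 7740 counts, lie inside that interval and are not told from these wells by this measure. No enterocyte-like well was found on the Lgr5-EGFP plates or in the Lgr5-positive organoid replicate.

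**Figure D2:**
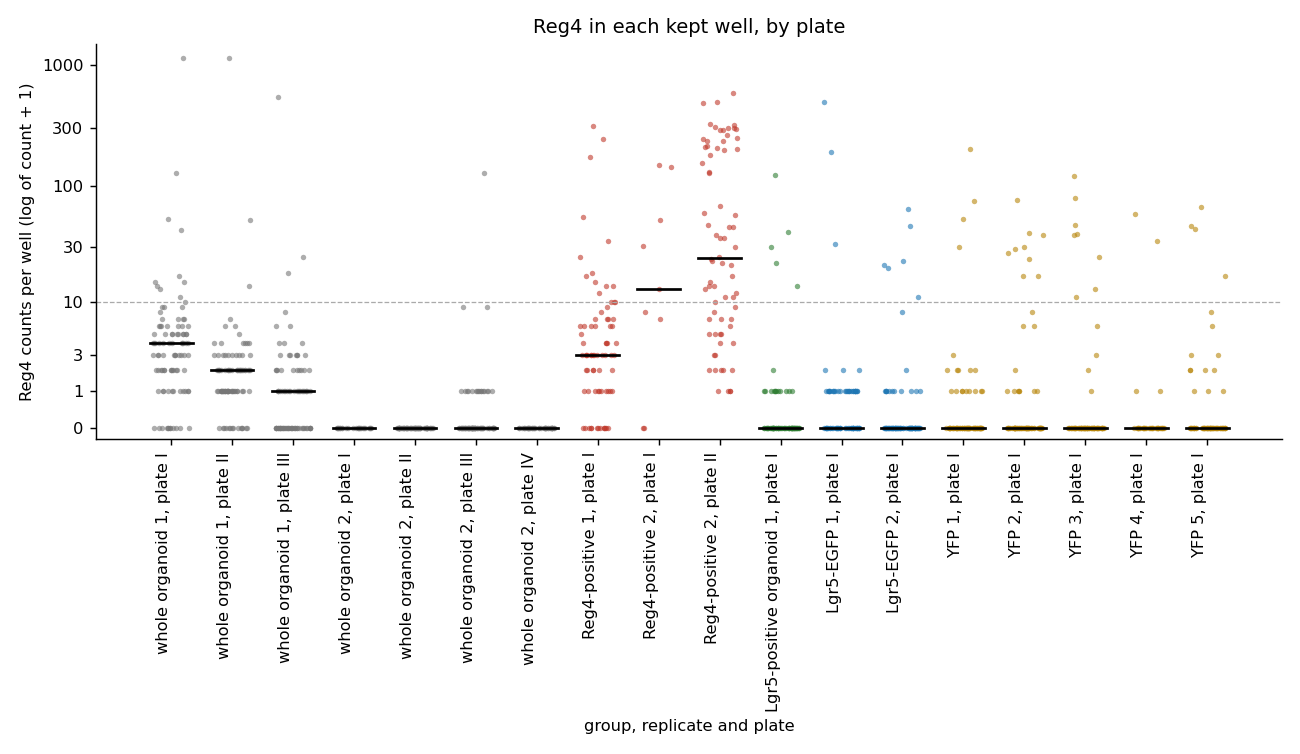
Reg4 counts in each kept well (points, log scale of count + 1) by group, replicate and plate; black lines are plate medians and the dashed line marks 10 counts. Most plates have medians of 0 to 4 with a few wells far above, while plate II of Reg4-positive replicate 2 has a median of 24.5.

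Most Reg4 transcripts came from very few cells. In whole organoid replicate 1 the median well held 2 Reg4 counts and the highest held 1138, a value reached once on plate I and once on plate II. Its 3 highest wells carried 74.8% of all Reg4 counts of 276 wells. In replicate 2 of the same group 1 well with 128 counts carried 79.0%. The Lgr5-positive organoid replicate had 1 well with 122 counts, 50.2% of its Reg4.

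The sorted Reg4-positive cells were less extreme. Replicate 1 had a median of 3 counts, a highest well of 311 and 64.6% of counts in 3 wells. Replicate 2 had a median of 24 counts, a highest well of 585, 27 of 81 wells at 100 or more, and only 19.4% of counts in 3 wells. The highest well of the ex vivo plates held 495 counts, on Lgr5-EGFP plate 1, where 3 wells carried 95.5% of the Reg4 counts. On the YFP plates the highest wells held 203, 76, 120, 58 and 66 counts, and 3 wells carried 47.1% to 98.9%.

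Without the 3 highest wells of each replicate, the Reg4-positive replicates kept 835 and 6214 CPM and whole organoids 337.5 and 10.5 CPM. The Lgr5-positive organoid replicate then had 56.9 CPM, the Lgr5-EGFP plates 41.9 and 62.4 CPM, and the YFP plates 73.6, 233, 238, 4.27 and 83.5 CPM. The 2 Reg4-positive replicates remained above the other 10 replicates.

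Low counts were spread over most wells of whole organoid replicate 1. On plates I, II and III of whole organoid replicate 1, 85.7%, 84.4% and 52.9% of the wells with fewer than 10 Reg4 counts had at least 1. Chgb, which encodes the secretory granule protein chromogranin B of endocrine cells, was counted in 98.8%, 60.0% and 69.4% of the same wells. In replicate 2 Chgb was found in 0% to 3.85% of such wells, and Reg4 in 23.1% on plate III and 0% on the other plates. Reg4 and Chgb thus were widespread on the same 3 plates. Other endocrine genes were less so in these wells, with Chga in 24.7% to 60.7%, Tac1 in 4.71% to 18.9% and Tph1 in 6.67% to 13.1%. The enterocyte gene Apoa4 was in 83.5% to 95.2% of them, and in 57.7% to 87.8% of such wells in replicate 2. Being widespread on these plates was therefore neither shared by all endocrine genes nor particular to them. A well of 100 or more Reg4 counts did not always come with such a spread of low Reg4 counts. Outside the Reg4 sort, plate III of whole organoid replicate 2 had such a well too. The remaining plates with one had any Reg4 in these shares of the wells with fewer than 10 counts. They were 18.8% (Lgr5-sorted organoid cells), 43.1% (Lgr5-EGFP plate 1), 19.7% and 6.06% (YFP plates 1 and 3). What links the low counts to the high wells was not tested.

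Cells with 10 or more Reg4 counts carried chromogranins, Paneth and goblet genes, or both, in proportions that differed between groups. Whole organoids had 18 such wells, of which 15 also had 10 or more counts of Chga or Chgb. Among the other 467 wells 6.64% did. All 15 were in replicate 1, which had 17 such wells, against 12.0% of its other wells. Chgb was at that level in 15 of the 18 wells and Chga in 6. Only 3 of the 17 wells of replicate 1 were enteroendocrine-like in the classes described below. The 1 well of replicate 2 with 10 or more Reg4 counts had no chromogranin at that level, but a Paneth gene (Lyz1, Defa24 or Mmp7) and the mucin gene Muc2. Reg4-positive cells had 69, of which 54 had a chromogranin at that level, and the replicates differed, with 5 of 15 in replicate 1 and 49 of 54 in replicate 2, against 3.33% and 77.8% of their other wells. Of these 54 wells 27 also had a Paneth gene or Muc2 at 10 or more counts, 26 of them in replicate 2. Such genes were as common in replicate 2 wells with less Reg4, of which 63.0% had a Paneth gene and 18.5% Muc2 at that level. Of the remaining 10 wells in replicate 1, all had a Paneth gene or Muc2 at that level, but so did many wells with less Reg4, since 85.0% of them had a Paneth gene.

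In the Lgr5-sorted and ex vivo groups, unlike in whole organoid replicate 1, most high wells had Paneth and goblet genes without chromogranins. Among Lgr5-sorted organoid cells, 4 of 5 wells with 10 or more Reg4 counts carried Lyz1, Defa24 and Mmp7 at 10 or more counts, and 0 of the other 69 wells did for any of these genes. All 9 such Lgr5-EGFP wells had both a Paneth gene and Muc2 at 10 or more counts, and none had a chromogranin at that level, although Chga was counted in 2 of them and Chgb in 1. Of 27 such YFP wells, 24 had Paneth or goblet genes and no chromogranin at 10 counts, and 3 had one. At least 1 Chgb count was found in 10 of the 27 and in 64 of the other 308. Mmp7, the matrilysin of Paneth cells that processes defensins, was at 10 or more counts in 24 of the 27 YFP wells and in 0 of the other 308. Few wells of any group reached 10 Lgr5 counts, and among Reg4-positive cells 3 of 69 high wells and 0 of 87 others did. At least 1 Lgr5 count was found in all 9 high Lgr5-EGFP wells and 118 of 150 others, in 15 of 27 high YFP wells and 87 of 308 others, and in 3 of 5 high wells and 62 of 69 others of the Lgr5-sorted organoids, with no adjustment for depth.

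Cell classes were rebuilt by clustering with Reg4 left out, separately for organoid and ex vivo wells, and a cluster was called after a class only from its marker genes. A cell class seen this way is a description of these wells. Among organoid wells, 81 were enteroendocrine-like, 33 Paneth-like, 141 enterocyte-like and 80 stem-like, and the others stayed unnamed.

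Enteroendocrine-like cells held by far the most Reg4 in organoids. They had 21391 CPM in whole organoid replicate 1 (21 wells), 26636 in Reg4-positive replicate 1 (7 wells) and 27118 in Reg4-positive replicate 2 (49 wells). These wells made up 75.7%, 69.1% and 89.4% of all Reg4 counts of their replicates. In the first 2 of these replicates the class value rests on few wells. The 3 highest wells of whole organoid replicate 1 and of Reg4-positive replicate 1 were in this class and alone carried 74.8% and 64.6% of the counts. In whole organoid replicate 1 only 3 of the 21 wells had 10 or more Reg4 counts, and 14 of them had a median of 1 and at most 9. In whole organoid replicate 2 the 3 enteroendocrine-like wells had 0 Reg4 counts, which allows up to 351 CPM at the upper end of the exact Poisson interval.

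Paneth-like organoid cells came next. They had 630.5 CPM in 10 wells of Reg4-positive replicate 1 (9 of them with Reg4), 1980.5 CPM in 17 wells of replicate 2 (94.1%) and 2080.1 CPM in 3 wells of the Lgr5-sorted organoids. In whole organoid replicate 2, 1 of 3 Paneth-like wells held 128 counts and the other two none. Enterocyte-like cells of whole organoid replicate 1 had 423 CPM.

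Stem-like cells of the Lgr5-positive organoid replicate had 14 Reg4 counts in 68 wells, or 16.6 CPM (exact Poisson interval 9.10 to 27.9). The 6 stem-like wells of Reg4-positive replicate 2 had 839 CPM, and they include the 3 wells of that plate with more than 100000 counts, without which the value was 3764 CPM. One unnamed organoid cluster of 65 wells, led by Mptx1, Fcgbp, Spink4, Tff3, Lyz1 and Muc2 and so mixing Paneth and goblet genes, had Reg4 in 86.2% of wells and 1011 CPM, with 49 of its wells from Reg4-positive replicate 1.

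**Figure D3:**
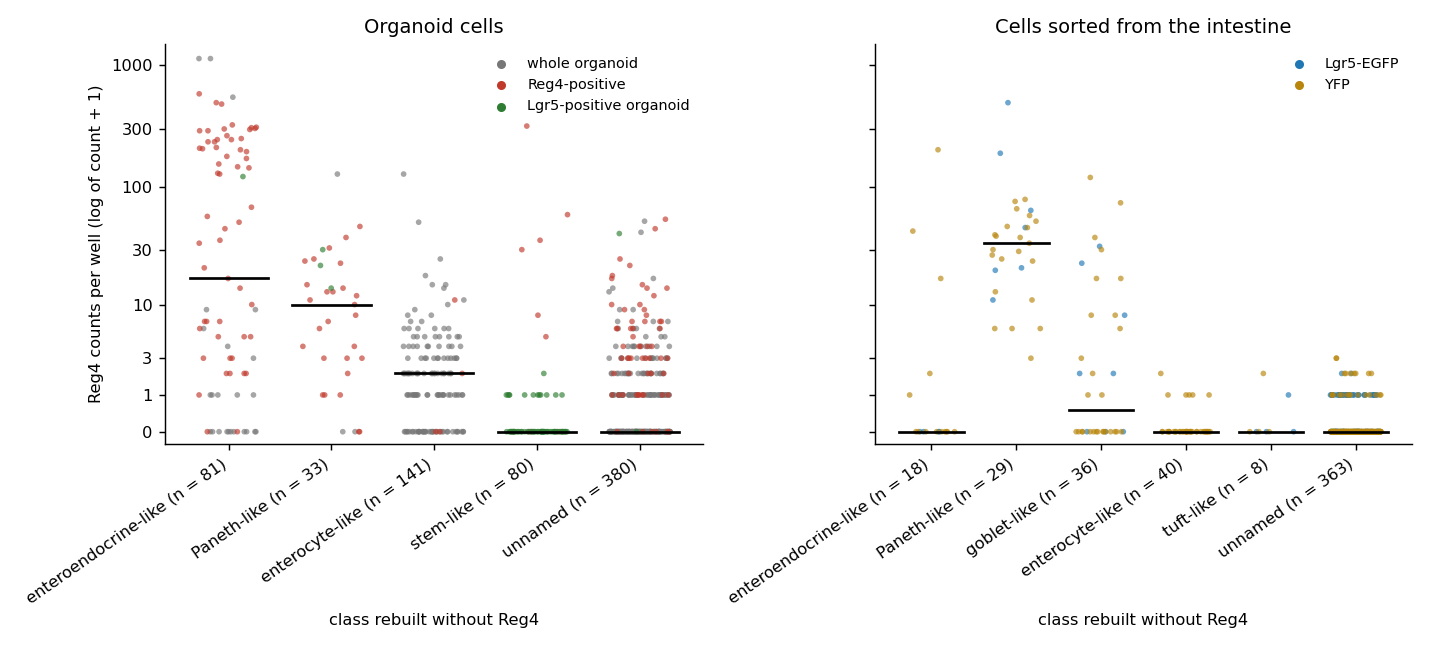
Reg4 counts per well (log scale of count + 1) by rebuilt class, left for organoid cells and right for cells from the intestine; points are wells coloured by group and black lines are medians over all wells of a class. The enteroendocrine-like organoid wells reach 1138 counts, and the 29 ex vivo Paneth-like wells all have Reg4.

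In cells straight from the intestine the order by CPM was different. Over all ex vivo plates Paneth-like wells had 3159 CPM, enteroendocrine-like wells 1379 and goblet-like wells 740. Among YFP cells alone the enteroendocrine-like value, given below, was close to the Paneth-like ones. All 29 Paneth-like wells had Reg4. They held 2010, 2115, 2029, 2112 and 2264 CPM on the 5 YFP plates (1, 8, 8, 2 and 3 wells), values close to one another, and 13502 and 1664 CPM on the Lgr5-EGFP plates (2 and 5 wells). The 2 wells of Lgr5-EGFP plate 1 had a median of 25366 counts in all against 9543 for that plate, and whether they held more than 1 cell was not tested. Of the YFP Reg4 counts 54.4% lay in these 22 wells, and of the Lgr5-EGFP counts 88.5% in 7 wells.

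Goblet-like cells had 335 CPM in 8 Lgr5-EGFP wells and 985 CPM in 28 YFP wells, with plate values from 0 to 3716 CPM. Enteroendocrine-like cells, the highest class in organoids, had 0 counts in 4 Lgr5-EGFP wells and 1955 CPM in 14 YFP wells, where YFP plate 1 gave 205 of the 266 counts. Only 5 of these 14 wells had any Reg4 (35.7%), against 54 of 56 enteroendocrine-like wells of the Reg4 sort and 13 of 24 of whole organoids. The sort on the reporter can set the share in the Reg4-positive group. Tuft-like cells had 1 count in 4 Lgr5-EGFP wells and 2 counts in 4 YFP wells, and YFP enterocyte-like cells 22.3 CPM.

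Within the endocrine cells of organoids, high Reg4 went with Tph1 and Ddc, genes of serotonin synthesis, and with Tac1. Of all 81 enteroendocrine-like organoid wells, 43 had 10 or more Reg4 counts, with a median of 17. Tph1 encodes tryptophan hydroxylase and marks enterochromaffin cells, and Ddc encodes the enzyme of the next step. Of 41 enteroendocrine-like organoid wells with 10 or more Tph1 counts, 32 had 10 or more Reg4 counts with a median of 203, against 11 of 40 wells with less Tph1 and a median of 3. For Ddc the numbers were 16 of 17 (median 291) against 27 of 64 (median 6.5), and for Tac1, which encodes the precursor of substance P, 40 of 56 (median 151) against 3 of 25 (median 1). Wells with more Tph1 were also deeper, at a median of 5958 against 4230.5 counts, and the part of depth was not tested.

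The same split by Tph1 was seen within the 2 replicates with the most enteroendocrine-like wells. In Reg4-positive replicate 2, 27 of 31 wells with 10 or more Tph1 counts and 7 of 18 with fewer reached 10 Reg4 counts, and in whole organoid replicate 1, 3 of 7 and 0 of 14 did. Reg4-positive replicate 1 had too few wells to show an order, with 2 of 3 and 3 of 4. The 1 enteroendocrine-like well of the Lgr5-positive organoid replicate had fewer than 10 Tph1 counts and 122 Reg4 counts. Other hormones were rarely at 10 counts in enteroendocrine-like organoid wells, and Gip, Sst and Pyy never were. Ghrl (ghrelin) was in 4 wells, 2 of them with 10 or more Reg4 counts (median 9.5). Cck was in 5 wells (3 of them, median 14) and Sct (secretin) in 4 wells (2 of them, median 120.5). In CPM the Sct wells (63101) and Cck wells (46763) stood above the Tph1 wells (34602), each set with a highest well of 1138 counts. Of the enteroendocrine-like wells from the intestine, 1 of 4 with 10 or more Tph1 counts and 2 of 14 with fewer reached 10 Reg4 counts. On YFP plate 5 it was 0 of 1 and 2 of 2. Only 27.8% of these 18 wells had any Reg4. The 3 Gip wells, 2 Ghrl wells and 2 Pyy wells at 10 or more counts had none, while 1 well of YFP plate 4 outside that class had 10 or more counts of both Ghrl and Reg4.

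The 3 endocrine clusters of organoids held different levels of Reg4. A cluster of 15 wells led by Afp, Alb and Chga had 10 or more Reg4 counts in every well, at 44567 CPM. Another of 57 wells led by Cck, Ghrl and Chgb had 18691 CPM, and a cluster of 9 wells led by Neurog3 and Pax4, transcription factors of endocrine precursors, had 177 CPM. All 9 Neurog3 wells were from whole organoids, and 14 of the 15 Afp wells were from the Reg4 sort.

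Genes that varied with Reg4 from well to well were ranked by Pearson's r of log2(1 + counts per 10000) within each replicate in which Reg4 was in at least 10% of wells, over genes counted in as many. Wells of a replicate share plate, library and depth, so r is a description and has no p. Whole organoid replicate 2 was below the minimum. In the other organoid replicates without the Lgr5 sort the highest genes were of endocrine cells. Chga had r = 0.46 in whole organoid replicate 1 and 0.56 and 0.72 in Reg4-positive replicates 1 and 2 (276, 75 and 81 wells). Chgb followed with 0.43, 0.50 and 0.62, and Afp, alpha-fetoprotein, with 0.43, 0.50 and 0.63. Atf6, a sensor of unfolded protein in the endoplasmic reticulum, had 0.33, 0.50 and 0.70, and Tph1 0.33 in whole organoid replicate 1 and 0.71 in Reg4-positive replicate 2. Other genes near the top were Gstt1 (0.22, 0.41 and 0.72), Ptprn2 of dense core vesicles (0.27, 0.48 and 0.64), and, in the Reg4-positive replicates, the prohormone convertase Pcsk1 (0.48 and 0.66), Fxyd6 (0.49 and 0.68), Rab3c (0.56 and 0.61) and S100a13 (0.60 and 0.52). Without the 3 wells of highest Reg4, Chga had 0.22 and 0.21, Chgb 0.30 and 0.16, Afp 0.32 and -0.00058 and Atf6 0.14 and 0.041 in whole organoid replicate 1 and Reg4-positive replicate 1, and Tph1 had 0.059 in the former. In Reg4-positive replicate 1 Rab3c then had 0.23 and Fxyd6 0.14. In Reg4-positive replicate 2, where 27 wells had 100 or more Reg4 counts, Chga (0.71), Tph1 (0.69) and Atf6 (0.69) hardly moved.

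The Lgr5-positive organoid replicate and all ex vivo plates had another set. In the former the leading genes were the cryptdin gene Gm15284 (0.86), Mmp7 (0.82), the goblet gene Spink4 (0.75) and Defa17 (0.73), over 74 wells. On Lgr5-EGFP plate 2 they were Muc2 (0.91), Spink4 (0.83), the chemokine Ccl6 (0.82) and Defa24 (0.81). YFP plate 3 had Ccl6 at 0.95 and Mmp7 at 0.91, plate 2 had Defa24 at 0.89 and Mmp7 at 0.87, and plate 4, with 35 wells, Defa17 at 0.93. On YFP plates 1 and 5 the top genes also included Sct, at 0.62 and 0.63. Without the 3 wells of highest Reg4, Sct had 0.35 on YFP plate 1 and Defa17 0.61 on YFP plate 4, where Defa5 went from 0.90 to -0.055. On Lgr5-EGFP plate 1, Ccl6 went from 0.79 to 0.18 and Defa24 from 0.73 to 0.18. The values on Lgr5-EGFP plate 1 and YFP plate 4, list medians included, thus rest largely on 3 wells each. Defensin genes are near-identical copies, so how counts were split among them is uncertain.

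Few genes were shared between the sets, in part because of the minimum of 10% of wells. Among the 50 highest genes of each replicate, 14 genes recurred in at least 2 organoid replicates of different groups and 36 in at least 3 of 7 ex vivo plates, and 1 gene, Rnase4, was in both. Chga, Afp, Cpe and Tph1 were counted in too few wells of every ex vivo plate to be ranked there, as were Defa24, Lyz1 and Mmp7 in whole organoid replicate 1, so those genes could not be in both. Defa24 ranked among the top 50 on all 7 ex vivo plates.

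The gene lists show the same division, with list medians set beside the median over all genes of a replicate, which was between -0.09 and 0.01. The Paneth list, 22 genes of defensins, lysozyme and related products, had medians of 0.58 and 0.68 on the Lgr5-EGFP plates, 0.36, 0.78, 0.77, 0.82 and 0.55 on the YFP plates and 0.66 in Lgr5-sorted organoid cells. In Reg4-positive cells the Paneth medians were -0.0026 (replicate 1) and -0.29 (replicate 2), and of 21 members 10 and 1 were above 0. The enteroendocrine list had medians of 0.24 (7 of 7 members above 0) in whole organoid replicate 1 and among Reg4-sorted cells 0.48 (5 of 5, replicate 1) and 0.39 (16 of 17, replicate 2), but -0.08 and -0.02 on the Lgr5-EGFP plates, over 2 and 3 members. In the Lgr5-positive organoid replicate 1 member of it, Cplx2, was counted often enough, with r = 0.42. On YFP plates 1 and 5 it stood at 0.19 and 0.39, and on plates 2, 3 and 4 at -0.13, -0.01 and -0.01, over at most 2 members each. The list holds 23 genes, so all these medians cover a part of it. Without the 3 wells of highest Reg4, its members Chga and Chgb fell to 0.22 and 0.30 in whole organoid replicate 1. In Reg4-positive replicate 1 they fell to 0.21 and 0.16. List medians without those wells are not given. Genes with r of 0.3 or more were 0.126% of all genes in whole organoid replicate 1 and 1.41% to 4.30% in the other ranked replicates.

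**Figure D4:**
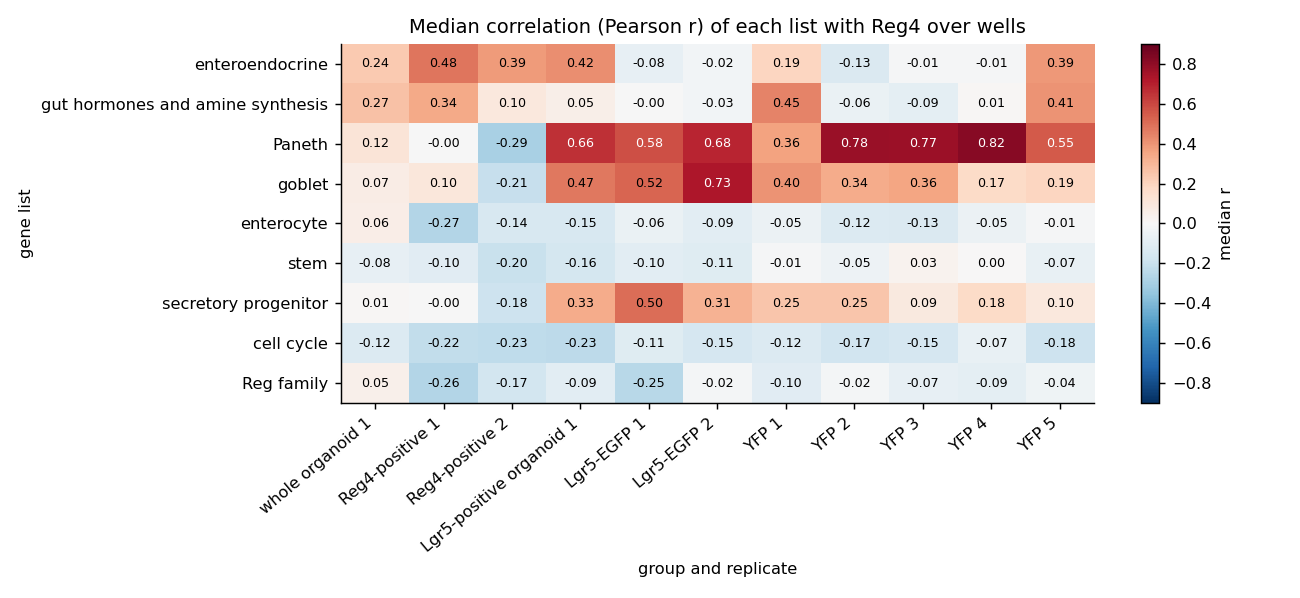
Median Pearson r with Reg4 over the members of each gene list (rows) in each ranked replicate (columns), from blue (negative) to red (positive). The Paneth row is 0.36 to 0.82 in the Lgr5-positive organoid replicate and the ex vivo plates and -0.29 to 0.12 in the other organoid replicates, where the enteroendocrine row is 0.24 to 0.48.

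The goblet list behaved like the Paneth list, from 0.17 to 0.73 on the ex vivo plates, 0.47 among Lgr5-sorted organoid cells, and 0.07, 0.10 and -0.21 in whole organoid replicate 1 and Reg4-positive replicates 1 and 2. Other members of the Reg family showed no such relation: Reg3g had r of -0.37 to 0.17 over 11 replicates, and the list medians ran from -0.26 to 0.05. The secretory progenitor list, which holds transcription factors and Notch ligands of early secretory cells, had medians of 0.09 to 0.50 on the ex vivo plates, led by Spdef (0.53) on Lgr5-EGFP plate 1 and by Atoh1 (0.73) on plate 2. In whole organoid replicate 1 and the Reg4-positive replicates that list stood at 0.01, -0.0020 and -0.18. Stem cell genes had medians of -0.20 to 0.03 and enterocyte genes of -0.27 to 0.06. Cell cycle genes were below 0 in nearly all cases, with list medians of -0.07 to -0.23. No tuft or immune gene was counted in 10% of the wells of any ranked replicate, so those lists gave no value.

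Reg4-positive replicate 1 also carried a row for dsRed, the reporter of the knock-in. It had 63 dsRed counts against 1129 Reg4 counts in its 75 kept wells, 5.58 for every 100. At least 1 dsRed count was found in 31 wells (41.3%, exact binomial interval 30.1% to 53.3%), and the highest well had 4. Of the 31 wells with dsRed, 30 had Reg4 (96.8%), while 48.4% of the 62 Reg4 wells had dsRed.

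The 2 transcripts were weakly related. By Reg4 count, dsRed was found in 1 of 13 wells with 0 Reg4 counts, 24 of 47 wells with 1 to 9, 4 of 12 wells with 10 to 99 and 2 of 3 wells with 100 or more. Over the 75 wells Pearson's r was 0.26 and Spearman's rho 0.25, a description of sparse counts with no test. The median depths of the 4 bins were 4971, 4573, 5977 and 5212 counts, so the bins were of similar depth. The 3 wells of highest Reg4 (311, 246 and 172 counts) had 3, 2 and 0 dsRed counts and 72, 58 and 68 counts of Chga.

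**Figure D5:**
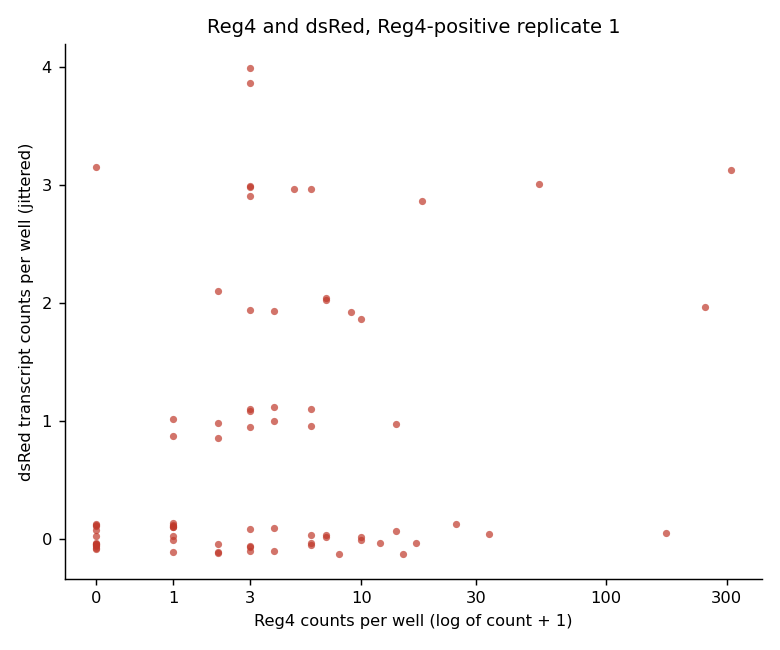
dsRed counts (jittered) against Reg4 counts (log scale of count + 1) in the 75 kept wells of Reg4-positive replicate 1. dsRed reaches 4 counts, and wells with 0 Reg4 counts have dsRed in 1 of 13 cases.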

How the data were processed

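Single cells were sorted into 96-well plates and sequenced by CEL-seq with a 4-base molecular barcode, per the labels' protocols. The values the authors deposited are estimated counts of transcripts per gene and well, made from numbers of distinct barcodes. The submitters' processing notes name BWA 0.6.2-r126 and mm10 (GRCm38) for alignment, and the sources used here do not describe the counting or its filters. With 256 possible barcodes, values saturate at 1597, which no Reg4 well reached, and high counts are imprecise. Values were rounded to whole numbers (by at most 0.495). Spike-ins (92 rows) and dsRed stayed out of totals, wells under 1500 gene counts were left out (471 of 1680), and 7 tables were used. Another 2 tables with 192 wells matched no sample and were not analysed here. The labels name more Reg4-positive samples than there are plates and do not say which is which. Plates of 1 passage were joined into 1 replicate.

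Counts summed over kept wells were tested with edgeR 4.0.16 (R 4.3.3, TMM, filterByExpr, quasi-likelihood, adjusted p below 0.05). The 3 organoid groups shared 1 fit, so the lone Lgr5-sorted replicate took its spread from the other two groups. On simulated counts for Reg4-positive against whole organoid (10191 genes) the test found 83 of 100 genes changed 4-fold and 99 of 100 changed 16-fold, with 41 unchanged genes called. CPM values are plain shares of the total. Shares were compared with exact permutation tests (scipy 1.17.1). Intervals (95%) and the limits that 0 counts allow (3 counts) are for counting error alone. Classes came from scanpy 1.11.5 (2000 variable genes, 20 components, 10 neighbours, Leiden resolution 1), with a class named from at least 3 markers raised 2-fold and counted in 25% of wells. No doublet caller was run. No kept well of a group was identical to another. The gene, the lists, the rule for named genes (Reg4, dsRed, Lgr5, up to 10 genes of highest r per replicate, genes shared between groups, and 4 high and 1 low per list) and the alternatives were chosen with earlier results of these data known. The wells of Tph1, Tac1 and Ddc, and the counts of marker genes in wells of high Reg4, were described after their values had been seen. DESeq2 1.42.0 was an alternative. Promoter sequence came from RefSeq, 1 window for Reg4.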

Additional observations from a re-analysis of the deposited data

Results flagged for a closer look

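Wells below 1500 counts entered no comparison, and some held Reg4. In the Reg4-positive group 38 of 132 such wells (28.8%) had 123 Reg4 counts in all. In whole organoids 4 of 187 such wells (2.14%) had any, and in YFP cells 4 of 97 (4.12%). For Lgr5-EGFP cells it was 1 of 33 wells, and for the Lgr5-positive organoid replicate 0 of 22. They are given as values.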

How the results depend on the processing

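In edgeR's fits, with no filter on low counts Reg4 was called in the 3 organoid comparisons (2.62, -1.77 and 4.39 on the log2 scale). Thinning called it for Reg4-positive against whole organoid (3.83). The share of all genes called in these settings is not given. Without wells above 100000 counts the difference of Reg4-positive against whole organoid was 3.61. Leaving out 1 replicate at a time gave 1.75 to 5.58 for Reg4-positive against whole organoid, -2.61 to 1.18 for Lgr5-positive organoid against whole organoid, 3.46 to 4.97 for Reg4-positive against Lgr5-positive organoid, and -0.49 to 1.81 for YFP against Lgr5-EGFP. For the share of wells, the leave-one-out range was 14.0 to 81.0 points for Reg4-positive against whole organoid and -25.5 to -2.80 for YFP against Lgr5-EGFP, whose direction turned with 2 counts (4.72), 10 counts (2.22) and thinned wells (1.03). With the replicate number as a block the differences were 3.46, -1.84, 5.31 and 0.65, and no call changed. Replicates 1 and 2 did not deviate together by number (correlations over genes of -0.09 for whole organoid with Reg4-positive and -0.03 for Lgr5-EGFP with YFP). Each value rests on 1 difference per group, so it cannot decide whether the numbers pair the samples. With only plates 1 and 2 of each ex vivo group, an alternative chosen after seeing the data, YFP against Lgr5-EGFP was 0.30.

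Of 66 r values named, 54 were 0.3 or more in size, above or below 0. Those below 0 were Defa24 (-0.38), Muc2 (-0.30) and Spink4 (-0.43) in Reg4-positive replicate 2. Only values above 0 were counted as being at 0.3 or more in the alternatives, so these negative ones are never in that count. It was 51 without wells above 100000 counts, 50 with wells of at least 3000 counts, 46 with thinned wells and 32 with Spearman's rho. Without the 3 wells of highest Reg4, a choice made after seeing the data, that count was 34, and 47 of the 54 kept their sign. The others were Afp in Reg4-positive replicate 1 (-0.00058), Mmp7 on Lgr5-EGFP plate 1 (-0.0695) and, on YFP plate 4 of 35 wells, Lyz1 (-0.25), Defa24 (-0.65), Mmp7 (-0.0426), Muc2 (-0.0912) and Spink4 (-0.103). The cause was not tested. All 20 levels per class stayed within their counting intervals at both other clustering resolutions, and 19 did without wells above 100000 counts, the other being that of the stem-like wells of Reg4-positive replicate 2.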

Other observations

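Some genes had r below 0 with Reg4 in part of the replicates. Slc12a2, a chloride transporter gene of crypt base stem cells, had r of -0.35, -0.30 and -0.54 in Reg4-positive replicates 1 and 2 and the Lgr5-positive organoid replicate, and Mcm2, which licenses DNA replication, had -0.24, -0.23 and -0.36. Both were nearer 0 in whole organoid replicate 1, at -0.06 and -0.10, and Slc12a2 had -0.17 to 0.0045 and Mcm2 -0.06 to -0.02 on the YFP plates. On Lgr5-EGFP plates 1 and 2 Slc12a2 had -0.27 and -0.14, and Mcm2 -0.16 and -0.14. Fabp2, the enterocyte fatty acid binding protein gene, had -0.35 and -0.29 in the Reg4-positive replicates and -0.04 in whole organoid replicate 1. Sepp1, a selenium transport gene listed with enterocytes, went the other way in Reg4-positive replicate 2 (0.59). Nupr1, a stress gene listed with Paneth genes, was above 0 in every ranked replicate in which it was counted often enough, organoid and ex vivo alike, with r from 0.17 to 0.79. On Lgr5-EGFP plate 1 its r went from 0.75 to -0.065 without the 3 wells of highest Reg4.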
